A study of Mus musculus with 9 samples.

Results

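Testicular RNA levels of 10 genes that carry ions across the membrane of the sperm flagellum were compared between wildtype, Prm2-heterozygous and Prm2-deficient mice. The genes were 4 pore subunits of the sperm calcium channel CatSper (Catsper1, Catsper2, Catsper3 and Catsper4), 3 of its accessory subunits (Catsperb, Catsperd and Catsperg1), the sperm potassium channel gene Kcnu1, the sodium-proton exchanger gene Slc9c1 and the sodium pump gene Atp1a4. They were chosen by name and not by a measured value, and all 10 were found among the 38685 genes of the table. All 10 also passed the filter on low counts, which kept 14893 genes for testing. The series holds 9 testis libraries of C57BL/6 males, with 3 libraries each of Prm2+/+, Prm2+/- and Prm2-/- genotype. Prm2 encodes a protamine, the small basic protein that replaces histones in the condensing sperm nucleus. The Prm2-deficient lines come from CRISPR/Cas9 editing in oocytes, and no other allele or treatment is named for any group. The age of the males, which edited line they came from and whether a library holds RNA of more than 1 male are not given in the sources used here.

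CatSper is a calcium channel of the principal piece of the sperm tail. It opens when the cell interior becomes alkaline and drives the whip-like beat known as hyperactivation. Its pore is built from CATSPER1, CATSPER2, CATSPER3 and CATSPER4, and accessory proteins with large extracellular parts, among them CATSPERB, CATSPERD and CATSPERG, stand around the pore. Kcnu1 encodes SLO3, the potassium channel that hyperpolarises sperm, Slc9c1 encodes the sperm-specific exchanger that exports protons, and Atp1a4 encodes the sodium pump isoform of the sperm tail. The genes are transcribed in germ cells of the testis, before the proteins act in mature sperm.

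The libraries were made with a 3′-end kit, in which reads arise near the poly(A) tail, so the end of a transcript is the stretch on which a level mostly rests. The last 30-base windows that hold a poly(A) signal are shown for the members that have one. They were read from the end of the longest coding transcript sequence in GENCODE M21, and their positions are those on GRCm38. Capitals mark the signal (AATAAA or ATTAAA), the strand is that of the gene, and all 6 windows lie in the annotated 3′ untranslated region.
Catsper2, chr2:121394356-121394385, minus strand: atataaatatctAATAAAtactgctaatga
Catsper4, chr4:134211974-134212003, minus strand: gtgtgcaccaaaAATAAActtttgtgttat
Catsperd, chr17:56664425-56664454, plus strand: agcttttgtcccAATAAAttgttaaccgtg
Catsperg1, chr7:29181538-29181567, minus strand: cattcagaccctAATAAAgcctccttgcag
Kcnu1, chr8:25937897-25937926, plus strand: tctggtgtaatgAATAAAgatgcccatgat
Slc9c1, chr16:45606966-45606995, plus strand: gtgataatgtgaATTAAAgcatctcacact

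AATAAA stood in the last 50 bases of 5 members, and ATTAAA in those of 1 member without AATAAA. Neither motif stood in that stretch of Catsper1, Catsper3, Catsperb or Atp1a4. Of 21877 coding genes treated in the same way, 72.2% held either motif. The count of 6 of 10 is a description of these transcript models. The members have from 2 (among them Catsper1) to 14 (Catsperg1) annotated 3′ ends, and which of them gave the reads was not tested.

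The recovered counts per library ranged from 3629929 to 4490411. Replicate 3 of Prm2+/+ stood apart from the other libraries. In it, 15.5% of the tested genes lay more than 1 log2 unit from the median of the 9 libraries, against 5.07% to 6.49% in the others. Prm2 itself was read at 29716, 29757 and 39665 normalized counts in the Prm2+/+ libraries, at 30174, 31011 and 34487 in the Prm2+/- libraries and at 34660, 36004 and 42766 in the Prm2-/- libraries. The transcript was thus not lower in the libraries labelled Prm2-/-, and these 3′ reads do not check the labels. Markers of elongating spermatids, the cells in which the flagellum is completed, had summed levels of 211677 to 228193 in Prm2+/+, 207801 to 220949 in Prm2+/- and 206884 to 216665 in Prm2-/- libraries. All 7 round spermatid markers were present, with sums of 7997 to 8893 over the 9 libraries. Spermatocyte marker sums were 7973 to 8698 in Prm2-/-, below all Prm2+/- (8735 to 9197) and Prm2+/+ (8865 to 9291) libraries. Such sums rest mostly on the most abundant markers, Pgk2, Piwil1 and Sycp1 (LFC -0.26, 0.08 and -0.07 against Prm2+/+). The sums include Spo11, which did not pass the filter. It was read at 9.50, 151 and 156 in Prm2+/+, at 3.95 to 8.84 in Prm2+/- and at 3.62 to 9.13 in Prm2-/-. Single markers were mixed: 4 of 6 tested were higher in Prm2-/- against Prm2+/+ (median LFC 0.04), and 1 of 6 against Prm2+/- (median -0.04). Of 4 peritubular markers, Acta2 and Cnn1 lay lower in Prm2-/- than in Prm2+/+ without overlap, as did 7.1% of all tested genes. Their LFC was -0.27 and -0.76 (adjusted p = 0.604 and 0.522 by limma). Myh11 (LFC -0.28) and Des (LFC 2.71) overlapped between these genotypes. Sertoli cell sums were 2713 to 2959 in Prm2-/- and 2449 to 2529 in Prm2+/-, both within the 2406 to 3220 of Prm2+/+. The part of these marker differences in the members' values was not tested. Among somatic markers, the Sertoli cell gene Amh was at 0 in all libraries, while Sertoli cell sums reached 3220 and macrophage sums 171. Over the 8 marker lists, limma called 0 of 41 tested genes in each comparison. An unadjusted p under 0.05 was reached by 5 for Prm2-/- against Prm2+/+, where 7.33% of all tested genes reached it. For Prm2+/- against Prm2+/+ it was reached by 2 (4.24% of all), and for Prm2-/- against Prm2+/- by 1 (5.44% of all). The edgeR test also called 0, and DESeq2 called 1 (Odf2, a gene of the outer dense fibres) higher in each comparison with Prm2-/- and 0 between Prm2+/- and Prm2+/+.

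Values below are normalized counts, that is, the counts of a library divided by its size factor. Differences are log2 fold changes (LFC) of the normalized count plus 1, with 95% confidence intervals and p-values from limma fitted over all tested genes. A gene was called when its Benjamini-Hochberg adjusted p was under 0.05 and its LFC was beyond 0.5 in size. The p-values set each difference against the spread between these libraries, estimated over all genotypes together. Whether it is a spread between single animals is not given. In whole testis, fewer cells of a type and less RNA per cell cannot be told apart.

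Among the pore subunits, Catsper1 was higher in every Prm2-/- library than in any other, although it was not called. It was read at 186, 178 and 191 in Prm2+/+, at 204, 195 and 162 in Prm2+/- and at 237, 244 and 262 in Prm2-/-. The lowest of the 3 Prm2-/- libraries lay above the highest of the 6 others, and the heterozygous and wildtype libraries overlapped. The means were 185 ± 6.71, 187 ± 22.2 and 248 ± 12.8 (SD, n = 3 each). The LFC of Prm2-/- against Prm2+/+ was 0.42 (95% interval 0.15 to 0.68, adjusted p = 0.478 by limma). Against Prm2+/- it was 0.41 (0.15 to 0.67, adjusted p = 0.711 by limma). Between Prm2+/- and Prm2+/+ it was 0.01, with an interval from -0.26 to 0.27.

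Catsper2 showed no ordering by genotype. Its values were 758, 919 and 166 in Prm2+/+, 613, 693 and 764 in Prm2+/- and 705, 706 and 555 in Prm2-/-. The low value belonged to replicate 3 of Prm2+/+, the library that stood apart, and the other 8 libraries averaged 714 ± 109 (SD). Prm2-/- differed from Prm2+/+ by an LFC of 0.42 (interval -0.89 to 1.73), and without that library it was -0.36. The gene lies on the minus strand of chr2 and overlaps an exon of Pdia3 on the other strand by 18 bases.

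Catsper3 and Catsper4 varied little. Catsper3 was read at 224, 259 and 328 in Prm2+/+, at 261, 241 and 253 in Prm2+/- and at 248, 243 and 234 in Prm2-/-, with overlapping groups. Its LFC of Prm2-/- against Prm2+/+ was -0.14 (interval -0.47 to 0.18), which became 0.0028 without replicate 3 of Prm2+/+. Catsper4 was read at 319, 314 and 409 in Prm2+/+, at 373, 332 and 409 in Prm2+/- and at 358, 343 and 414 in Prm2-/-. Its LFC was 0.10 against Prm2+/+ (interval -0.22 to 0.43) and 0.00082 against Prm2+/- (interval -0.32 to 0.33). For both genes the interval of the Prm2-/- difference stayed within 0.5 in either direction.

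**Figure D1:**
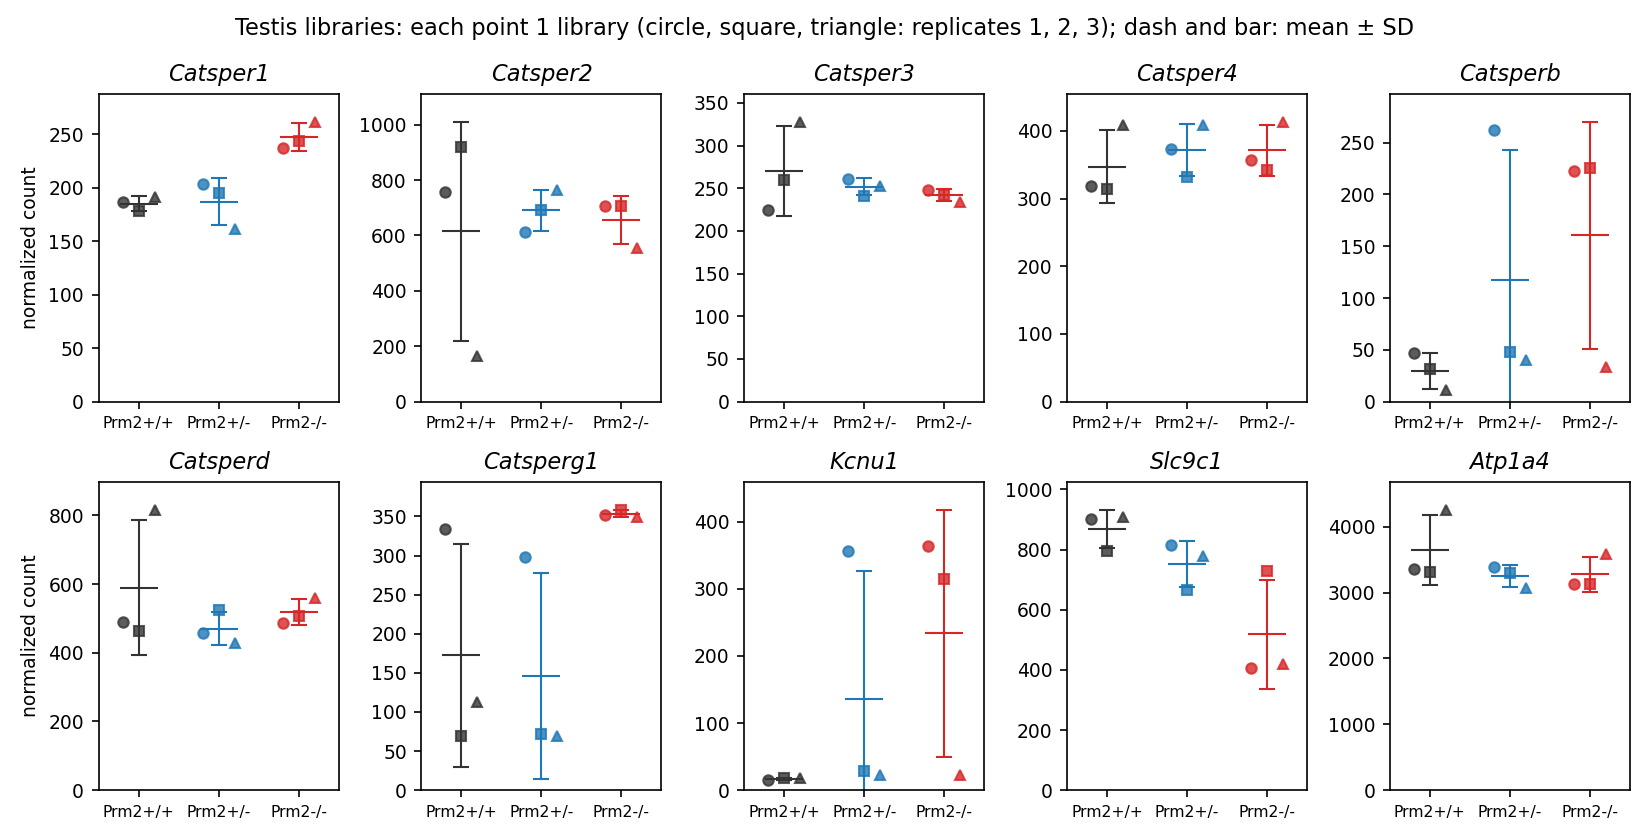
Normalized count (linear axes from 0) of each of the 10 genes in each of the 9 testis libraries by genotype; points are libraries, the symbol gives the replicate number, and the dash and bar are the mean and SD of 3 libraries, with bars cut at 0. Catsper1 is higher in the 3 Prm2-/- libraries than in the other 6, Slc9c1 is lower in them than in the 3 Prm2+/+ libraries, and Kcnu1 and Catsperb are high in the same 3 libraries.

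Among the accessory subunits, Catsperb and Catsperg1 had high and low libraries. Catsperb was read at 46.6, 31.1 and 11.05 in Prm2+/+, at 262, 48.4 and 40.6 in Prm2+/- and at 223, 225 and 33.8 in Prm2-/-. Replicate 1 of Prm2+/- and replicates 1 and 2 of Prm2-/- were high, at a mean of 237 ± 22.0, and the other 6 libraries were low, at 35.3 ± 13.7 (SD). The high mean was 6.71 times the low mean, and both levels occurred in Prm2+/- and in Prm2-/-. Prm2-/- against Prm2+/+ gave an LFC of 2.19, with an interval from -0.06 to 4.45 and an adjusted p of 0.696 by limma. Leaving out 1 library moved this LFC to between 1.63 (without replicate 3 of Prm2+/+) and 3.09 (without replicate 3 of Prm2-/-).

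Catsperg1 was split in other libraries. It was read at 334, 69.7 and 113 in Prm2+/+, at 299, 71.2 and 69.8 in Prm2+/- and at 352, 358 and 350 in Prm2-/-. The 3 Prm2-/- libraries were high and close together (353 ± 4.44, SD, n = 3), as were replicate 1 of Prm2+/+ and replicate 1 of Prm2+/-. The Prm2-/- libraries lay above both other groups without overlap. The LFC was 1.35 against Prm2+/+ (interval -0.23 to 2.93, adjusted p = 0.719 by limma) and 1.62 against Prm2+/- (0.04 to 3.20, adjusted p = 0.904 by limma). The former was 1.98 without replicate 1 of Prm2+/+ and 0.86 without replicate 2, and the latter ran from 1.27 to 2.31 when 1 library was left out. Catsperg1 has a paralog, Catsperg2. The longest coding transcripts of the pair were identical at 96.5% of 3658 aligned bases, and the last 300 bases of Catsperg1 at 92.7% of 287 aligned bases. Reads that fall in shared stretches could have been counted for either gene, so the level of Catsperg1 is uncertain. Catsperg2 itself was read at 281 to 460 and did not show the high and low levels of Catsperg1.

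Catsperd, required for the assembly of the channel complex, was read at 489, 463 and 815 in Prm2+/+, at 458, 524 and 429 in Prm2+/- and at 487, 506 and 561 in Prm2-/-. Again replicate 3 of Prm2+/+ lay outside the range of the others, here above it. Its LFC of Prm2-/- against Prm2+/+ was -0.14 (interval -0.62 to 0.34) and 0.12 without that library. The groups overlapped in all 3 comparisons.

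Kcnu1 had the largest gap between libraries among the members. It was read at 15.2, 18.2 and 17.7 in Prm2+/+, at 356, 28.3 and 23.0 in Prm2+/- and at 363, 315 and 23.2 in Prm2-/-. These values rest on 16 to 31 recovered counts in the 6 low libraries and on 310 to 401 in the 3 high ones. The high libraries were the same 3 as for Catsperb, at 345 ± 26.2 against 20.9 ± 4.79 (SD), a ratio of means of 16.5. These gene-level counts derive from the transcript quantification of StringTie in each library, and whether that step or the testes set the shared high level of Kcnu1 and Catsperb cannot be told apart in the table. All Prm2+/- and Prm2-/- libraries lay above all Prm2+/+ libraries, but replicate 3 of Prm2-/-, at 23.2, lay close to the highest wildtype value of 18.2. The LFC of Prm2-/- against Prm2+/+ was 2.97 (interval 0.03 to 5.90, adjusted p = 0.677 by limma). DESeq2 fitted on the 6 libraries of these genotypes called it (LFC 3.78, adjusted p = 0.000611), whereas over the 19 alternatives the adjusted p reached 0.891. The LFC of Prm2+/- against Prm2+/+ was 1.81 (interval -1.12 to 4.74). Leaving out 1 library moved the former to between 2.28 (without replicate 1 of Prm2-/-) and 4.24 (without replicate 3 of Prm2-/-), and the latter to between 0.56 (without replicate 1 of Prm2+/-) and 2.51 (without replicate 3 of Prm2+/-). The genes within 30 kb of Kcnu1 did not share its high level, with Ash2l at 32.0 to 70.2 and Hgsnat at 39.8 to 70.7 over the 9 libraries. The same held for Tc2n beside Catsperb, at 17.7 to 64.9. Beside Catsperg1, Yif1b reached 360 and 389 in replicates 1 and 2 of Prm2-/-, and was at 42.0 to 82.1 elsewhere. There, 1110035H17Rik reached 202 in replicate 1 of Prm2+/-, and was at 60.8 to 90.1 elsewhere. Neither gene had the same set of high libraries as Catsperg1. These neighbours were chosen after their values were seen.

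The Prm2-/- libraries of Slc9c1 lay below all Prm2+/+ libraries. It was read at 902, 794 and 907 in Prm2+/+, at 814, 665 and 778 in Prm2+/- and at 408, 728 and 419 in Prm2-/-. Replicates 1 and 3 of Prm2-/- were lower than every other library, and replicate 2 lay among the heterozygous values. The means were 868 ± 63.8, 752 ± 77.5 and 518 ± 182 (SD, n = 3 each). The LFC of Prm2-/- against Prm2+/+ was -0.79 (interval -1.29 to -0.29, adjusted p = 0.478 by limma), and against Prm2+/- it was -0.59 (-1.09 to -0.09, adjusted p = 0.878 by limma). Without replicate 2 of Prm2-/- the gene was called against Prm2+/+, with an LFC of -1.07 and an adjusted p of 0.0327 by limma. In the other 18 alternatives it was not called. The interval of Prm2+/- against Prm2+/+ ran from -0.71 to 0.29.

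Atp1a4 also varied little. It was read at 3357, 3315 and 4254 in Prm2+/+, at 3383, 3297 and 3064 in Prm2+/- and at 3126, 3126 and 3582 in Prm2-/-. The groups overlapped, and the highest value was once more that of replicate 3 of Prm2+/+. Its LFC was -0.15 for Prm2-/- against Prm2+/+ (interval -0.40 to 0.11), -0.16 for Prm2+/- against Prm2+/+ (-0.41 to 0.10) and 0.01 for Prm2-/- against Prm2+/- (-0.24 to 0.26).

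**Figure D2:**
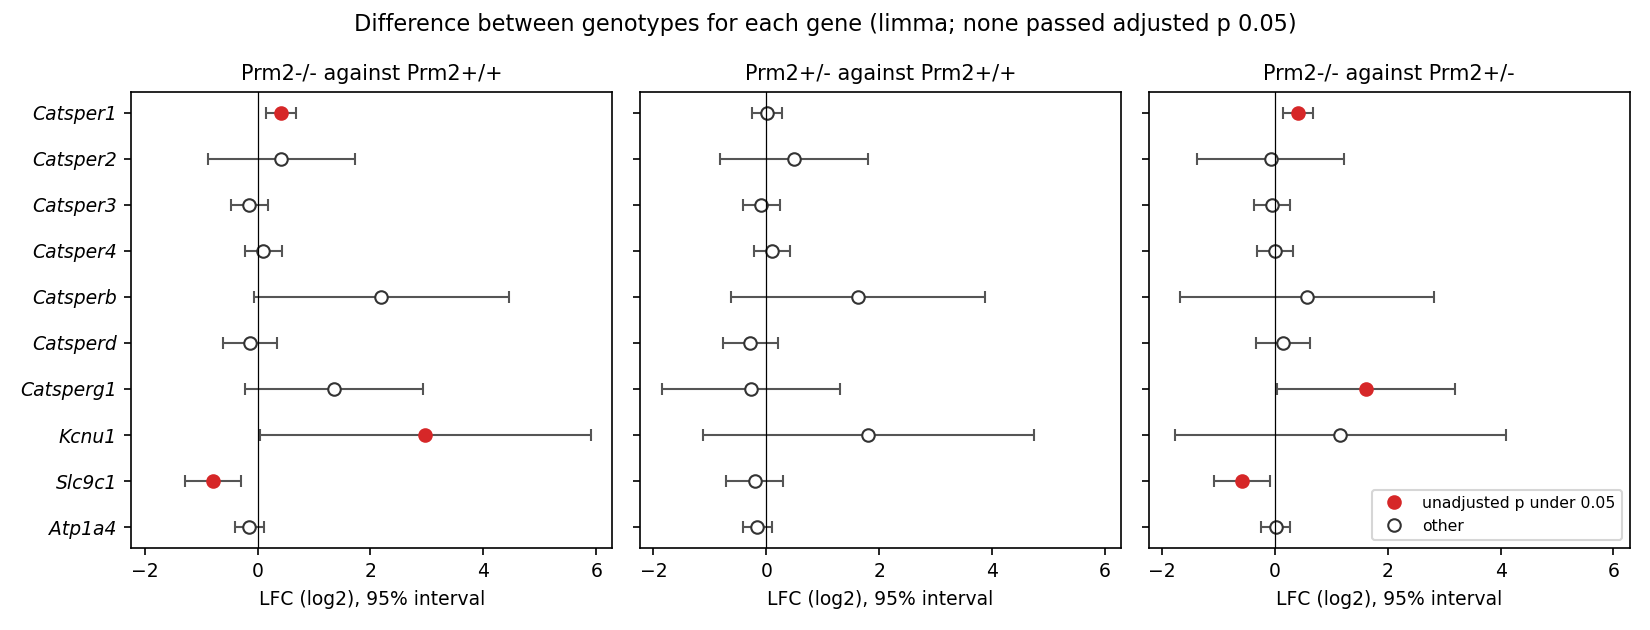
LFC with its 95% interval (x axis, log2 units) of the 10 genes (y axis) in the 3 comparisons between genotypes; filled points have an unadjusted p under 0.05. The narrowest intervals belong to Atp1a4, Catsper1, Catsper3 and Catsper4, and the widest to Kcnu1 and Catsperb, whose libraries split into high and low.

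Over the 10 members, none was called between Prm2-/- and Prm2+/+ by limma, where 0.181% of all tested genes were called. An unadjusted p under 0.05 was reached by 3 members (Catsper1, Kcnu1 and Slc9c1), against 7.33% of all tested genes. The libraries of both genotypes did not overlap for 3 higher members (Catsper1, Catsperg1 and Kcnu1) and 1 lower member (Slc9c1), where 6.92% of tested genes were higher and 7.1% lower without overlap. The median LFC of the members was 0.26, beside 0.02 for all tested genes, and 0.10 by edgeR and 0.096 by DESeq2 on the 9 libraries. Without replicate 3 of Prm2+/+ it was 0.17, and Catsper4 and Catsper2 joined the members without overlap, as higher and lower, while the background rose to 13.7% and 14.4%. edgeR called 0 members (0.161% of all tested genes), with 4 at an unadjusted p under 0.05 (6.91%). DESeq2 on the 9 libraries called 0 (0.88%), with 4 at that p (6%), and on the 6 libraries compared it called 1 (1.55%), with 4 at that p (7.1%).

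No member was called between Prm2+/- and Prm2+/+ by limma (0.0806% of all tested genes called). The count at an unadjusted p under 0.05 was 0, against 4.24% of the tested genes, and edgeR (0.0671% of all tested genes called) and DESeq2 (0.396% on the 9 libraries and 0.396% on the 6 compared) also called 0. Kcnu1 was the 1 member without overlap, where 4.88% of tested genes were higher and 4.56% lower without overlap. The median LFC of the members was -0.04, beside 0.01 for all tested genes.

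Between Prm2-/- and Prm2+/-, again 0 members were called by limma (0.175% of all tested genes called), as by edgeR (0.154%) and by DESeq2 (0.739% on the 9 libraries and 1.06% on the 6 compared). Catsper1, Catsperg1 and Slc9c1 had an unadjusted p under 0.05, against 5.44% of tested genes, and Catsper1 and Catsperg1 lay higher without overlap, where 7.47% of tested genes did and 7.25% lay lower. The median LFC was 0.08, beside -0.01 for all tested genes. The comparisons share libraries, so the agreement of their directions for Catsper1, Catsperg1 and Slc9c1 rests in part on the same 3 Prm2-/- samples.

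High and low libraries of a gene were described by the largest gap between neighbouring values after sorting the 9 libraries by log2 level. A gene had a step when this gap was above 2 log2 units and at least 75% of its range. Kcnu1 was the 1 of 10 members with a step, with a gap of 3.43, and 1041 of the 14893 tested genes (6.99%) had one. The gap of Catsperb was 2.18 but made up 49.0% of its range. Replicate 3 of Prm2+/+ was its lowest library, and without that library Catsperb still had no step. The gaps of Catsper2 and Catsperg1 were 1.74 and 1.40. The remaining 6 members had gaps of 0.13 to 0.66. Only 1 other gene with a step shared the high libraries of Kcnu1. The 1041 genes with a step fell into 229 different sets of high libraries, the most common of which, with 366 genes, was low in replicate 3 of Prm2+/+ alone. In 23 of them all Prm2-/- libraries were high and all Prm2+/+ libraries low. Over the 8 libraries without replicate 3 of Prm2+/+, 2 members (Catsperg1 and Kcnu1) and 5.92% of all tested genes had a step.

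**Figure D3:**
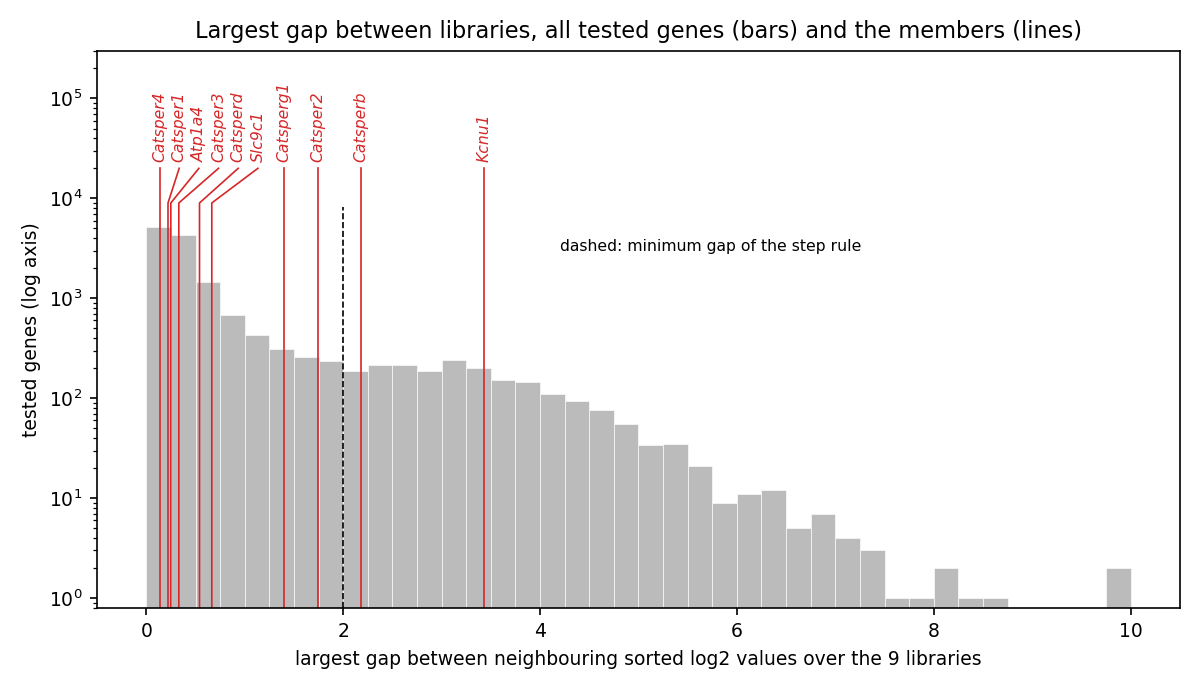
Largest gap between neighbouring sorted log2 values over the 9 libraries (x axis) for the 14893 tested genes (bars, number of genes on a log axis) and the 10 members (lines); the dashed line marks the minimum gap of 2. Kcnu1 lies at 3.43 and Catsperb at 2.18, while 6 members lie between 0.13 and 0.66.

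The members did not move as a unit across the libraries. Over their 45 pairs, the correlation of log2 levels across the 9 libraries had a median of -0.04 and ran from -0.94 to 0.93, with 8 pairs over 0.5 and 7 under -0.5. The highest value joined Catsperb and Kcnu1 (r = 0.93), which lie on different chromosomes. Catsperd and Atp1a4 followed (r = 0.91), and Catsper2 ran against Catsperd (r = -0.94). Without replicate 3 of Prm2+/+, over 8 libraries, the correlation was 0.98 for Catsperb with Kcnu1, 0.57 for Catsperd with Atp1a4 and -0.56 for Catsper2 with Catsperd, and that of Catsper2 with Catsper3 went from -0.83 to 0.24. All pairs share the same libraries and size factors, and 9 libraries of 3 genotypes are few.

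**Figure D4:**
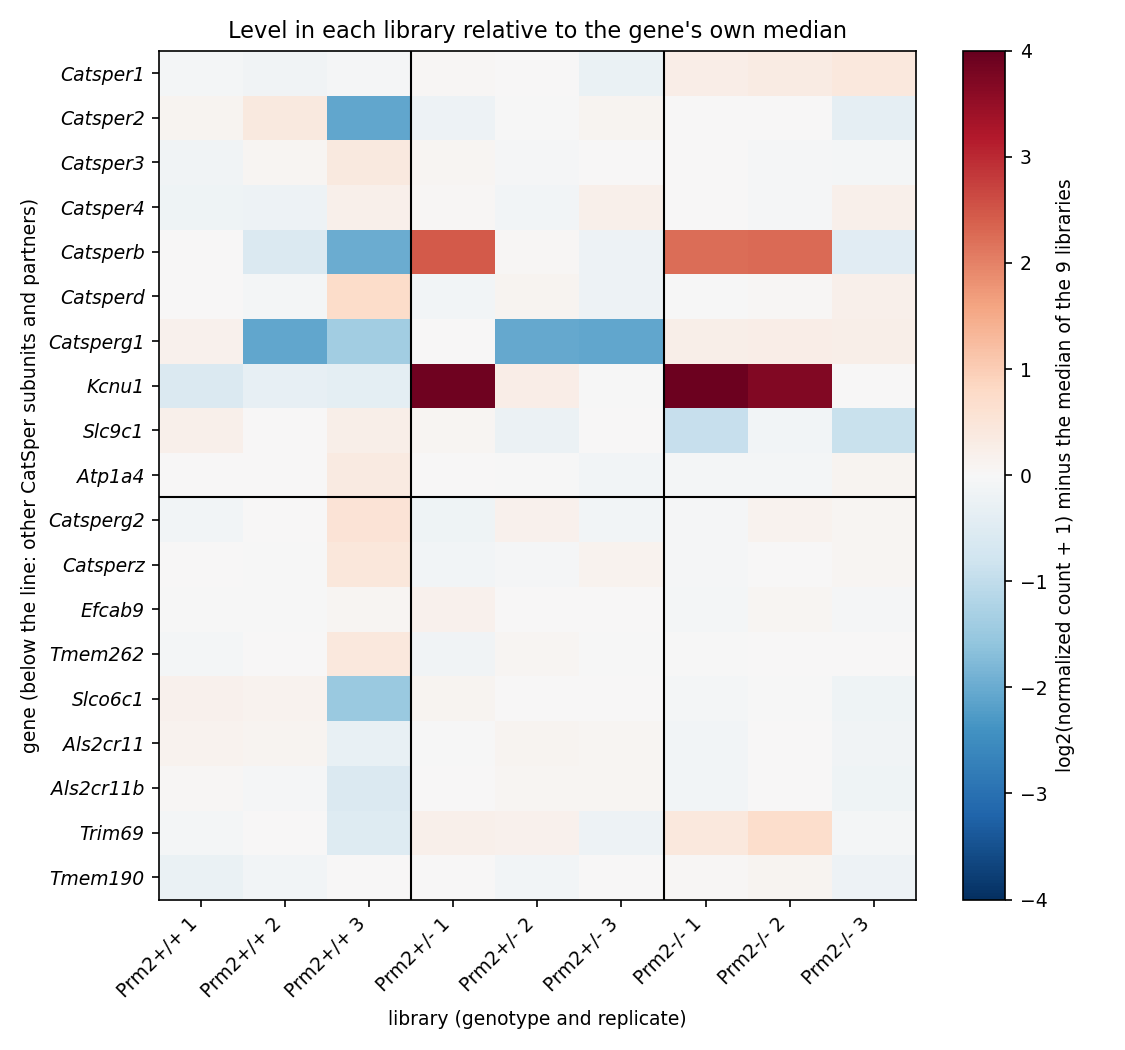
Level of the 10 members and of 9 other CatSper subunits and partners (rows) in each library (columns), as log2 of the normalized count plus 1 minus the median of the gene over the 9 libraries (colour, log2 units). Kcnu1 and Catsperb are high in replicate 1 of Prm2+/- and replicates 1 and 2 of Prm2-/-, Catsperg1 is low in 4 libraries, and most partners, Trim69 excepted, vary little outside replicate 3 of Prm2+/+.

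The 5 tested genes whose levels most resembled the mean standardised profile of the members over the 9 libraries were Etnk2 (r = 0.94), which encodes an ethanolamine kinase, Tmem237 (r = 0.93), which encodes a protein of the ciliary transition zone, Faiml (r = 0.92), Gm26825 (r = 0.91) and the ribosomal protein gene Rpl21 (r = 0.91). The mean profile itself was highest in replicate 1 of Prm2+/- (0.39 standard units) and replicate 3 of Prm2+/+ (0.33) and lowest in replicate 2 of Prm2+/+ (-0.40). Etnk2 was read at 41.8, 38.6 and 167 in Prm2+/+, at 128, 40.2 and 38.0 in Prm2+/- and at 158, 124 and 131 in Prm2-/-. These genes were picked as the closest of all tested genes, so their likeness is a description.

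Other subunits and partners of the channel were examined from a list of 16 names, of which 9 were in the table under these symbols and all 9 were tested. None was called in any of the 3 comparisons by limma (0 of 9), and 0 had an unadjusted p under 0.05. Their LFC of Prm2-/- against Prm2+/+ had a median of -0.03 and ranged from -0.14 to 0.54. The list includes Catsperz and Efcab9, which form the calcium sensor pair of the complex, with LFC of -0.14 (interval -0.44 to 0.16) and -0.03 (-0.21 to 0.16). The gene with the smallest p was Trim69, an E3 ubiquitin ligase gene, at 27.6, 28.9 and 19.9 in Prm2+/+, 33.6, 32.9 and 24.7 in Prm2+/- and 38.9, 47.7 and 27.5 in Prm2-/-. Its groups overlapped, and its LFC against Prm2+/+ was 0.54 (interval -0.05 to 1.13). Between Prm2+/- and Prm2+/+ it was Als2cr11b, with an LFC of 0.25 (interval -0.11 to 0.61).

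Of 31 other ion channels, exchangers and pumps, 30 were in the table and 23 were tested. None was called by limma (0 of 23 in each comparison), and 1, 2 and 2 had an unadjusted p under 0.05 for Prm2-/- against Prm2+/+, Prm2+/- against Prm2+/+ and Prm2-/- against Prm2+/-. Of all tested genes, 7.33%, 4.24% and 5.44% reached that p in this order. Cftr, the chloride and bicarbonate channel gene, was read at 48.5, 16.1 and 6.63 in Prm2+/+, at 55.4, 79.5 and 105 in Prm2+/- and at 114, 119 and 99.3 in Prm2-/-. The wildtype libraries lay below all others. The LFC of Prm2-/- against Prm2+/+ was 2.58 (interval 1.20 to 3.96, adjusted p = 0.377 by limma), and that of Prm2+/- against Prm2+/+ was 2.07 (0.70 to 3.45, adjusted p = 0.842 by limma). DESeq2 called Cftr between Prm2-/- and Prm2+/+ on the 9 libraries (adjusted p = 0.0397) and on the 6 compared (adjusted p = 0.0254). Limma called it without replicate 1 of Prm2+/+ (LFC 3.29, adjusted p = 0.026). The edgeR test called 0 genes of this list, and leaving out 1 library gave Cftr an adjusted p of up to 0.801 by limma.

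The list of cAMP and calcium signalling in the flagellum held 18 genes, all of them tested. Limma called 0 of 18 in each comparison, with 3, 0 and 3 at an unadjusted p under 0.05 in the order given above. The shares over all tested genes were again 7.33%, 4.24% and 5.44%. Akap3, an anchor of protein kinase A in the fibrous sheath of the tail, was read at 143, 146 and 129 in Prm2+/+, at 149, 125 and 106 in Prm2+/- and at 281, 273 and 226 in Prm2-/-. The 3 Prm2-/- libraries lay above the 6 others. The LFC was 0.89 against Prm2+/+ (interval 0.54 to 1.24, adjusted p = 0.142 by limma) and 1.04 against Prm2+/- (0.69 to 1.39, adjusted p = 0.0723 by limma). DESeq2 on the 9 libraries called it in both comparisons (adjusted p = 0.000372 and 1.15e-05), as did DESeq2 on the 6 libraries compared (adjusted p = 2.06e-06 and 0.000146). Limma called it against Prm2+/- without replicate 1 of Prm2+/- (adjusted p = 0.0381). The edgeR test called 0 genes of this list in both comparisons. Leaving out 1 library gave Akap3 an adjusted p of up to 0.445 against Prm2+/+ and 0.266 against Prm2+/- by limma. Plcz1, the sperm phospholipase that starts calcium waves in the egg, had the smallest p between Prm2+/- and Prm2+/+, with an LFC of 0.15 (interval -0.04 to 0.33).

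**Figure D5:**
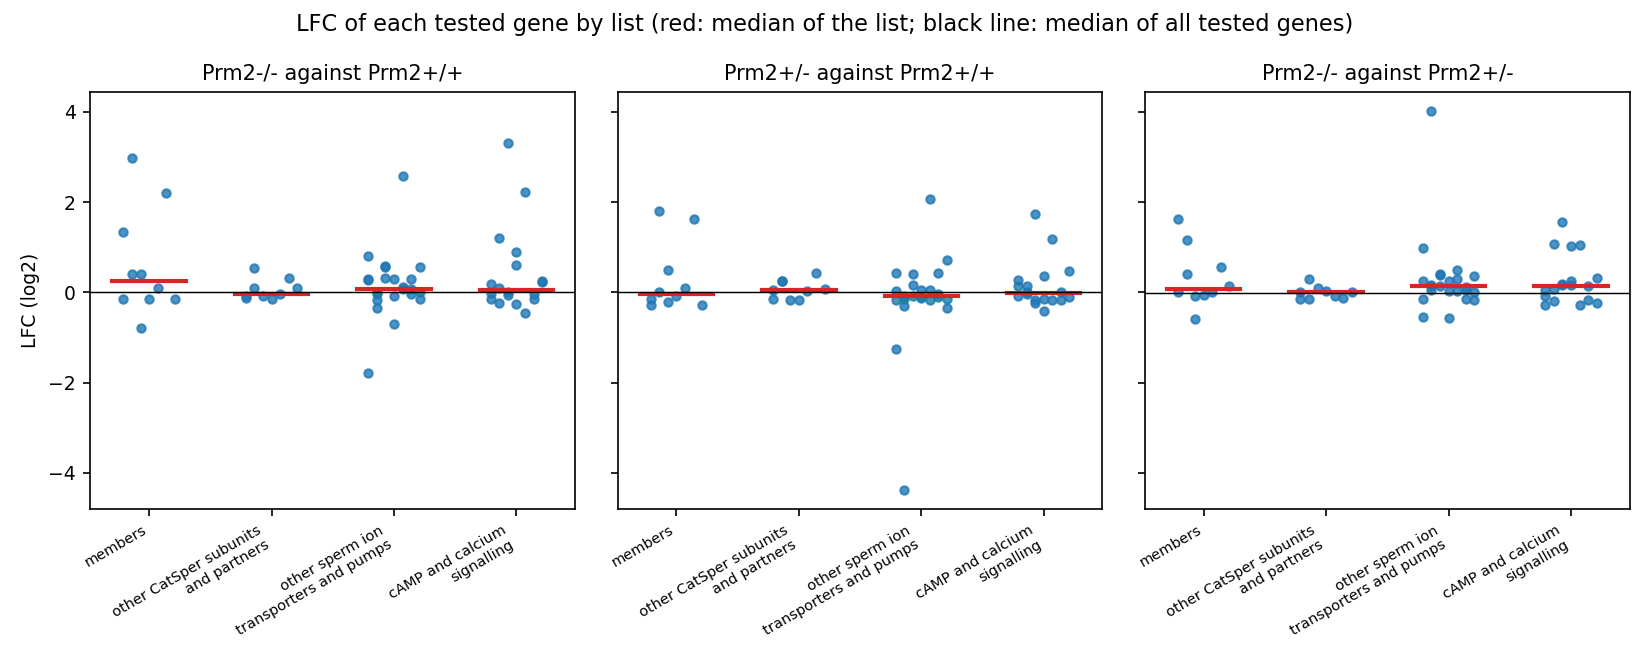
LFC (y axis, log2 units) of each tested gene of the 4 lists (x axis) in the 3 comparisons, with the median of each list in red and that of all tested genes as a black line. The list medians lie between -0.09 and 0.26, and the 9 other CatSper subunits and partners spread less than the members.

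A shared promoter motif was looked for in RefSeq windows of GRCm38.p6, from 250 bases before to 50 after the start of transcription, which matched 8 of the 10 members with 10 windows. The cAMP response element TGACGTCA stood in 0 of them, and in 1.79% of 32851 windows of all genes. Its core TGACG stood on either strand in a window of 2 members, Catsper2 and Catsperd, and in 20.8% of all windows. A match describes letters and not a bound site.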

How the data were processed

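RNA of 9 mouse testis libraries was measured by 3′-end RNA sequencing. According to the labels and the paper, RNA was extracted with TRIzol after removal of the tunica albuginea and libraries were made with the QuantSeq kit. The submitters' processing notes name Trim Galore 0.4.5, HISAT2 2.1, StringTie 1.3.3, DESeq2 and GRCm38. The unit of the deposited table is signal. Its entries are gene-level counts from the script of StringTie, without pseudogenes, that the authors divided by a size factor for each library. Counts were recovered from the step of each library (100% whole within 0.001). This is weaker evidence for replicate 1 of Prm2+/- and replicate 2 of Prm2-/-, whose steps are near 1 (0.989 and 1.015). StringTie derives such counts from coverage, so the totals need not equal sequenced reads. Counting strand is not given in the sources used here. The table had 0 columns without a sample, and 38520 of 38685 genes (99.6%) matched GENCODE M21.

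Genotypes came from the sample titles. Genes were filtered with filterByExpr of edgeR on the recovered counts. Since the unit is signal, the results come from limma (lmFit, then eBayes with an intensity trend) fitted to log2(value + 1) of all 9 libraries with genotype as the only term, and edgeR and DESeq2 on recovered counts were alternatives. The members, gene lists and tests were chosen with earlier results of these data known. Named genes are the members, Prm2, in each other pathway list the gene with the smallest p per comparison, any called gene, and the 5 genes most like the members' mean profile; other genes were named after their values were seen. Catsperz and Efcab9 were named for their role. A result of 1 further gene is not reported here. On counts simulated for Prm2-/- against Prm2+/+ over 14893 genes, limma recovered 45% of 100 genes changed 2-fold and 100% of 100 changed 4-fold, with 8 false calls, and made 0 calls without a change. Every simulated gene had the same spread between libraries, the median of the tested genes, and the changed genes were drawn above a minimum level. Alternatives covered scaling with TMM factors, the pseudocount (0.5 and 5), the count filter, the libraries fitted, the tool, a replicate block and leaving out each library. The fits used limma 3.58.1, DESeq2 1.42.0 and edgeR 4.0.16 in R 4.3.3, and sequences were read with Biopython 1.88 in Python 3.11.15.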

Additional observations from a re-analysis of the deposited data

How the results depend on the processing

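Of 570 alternative LFC values of the members (10 genes, 3 comparisons, 19 settings), 554 kept their sign. No member was called in any setting between Prm2+/- and Prm2+/+ or between Prm2-/- and Prm2+/-. Between Prm2-/- and Prm2+/+, 1 was called by DESeq2 on the 6 libraries compared (Kcnu1), and 0 to 1 when 1 library was left out (Slc9c1, without replicate 2 of Prm2-/-). Each change of sign came from leaving out 1 library. For Prm2-/- against Prm2+/+ the range of LFC was then -0.36 to 0.88 for Catsper2, -0.27 to 0.0028 for Catsper3, -0.29 to 0.12 for Catsperd and -0.089 to 0.23 for Als2cr11b, with replicate 3 of Prm2+/+ as the library whose omission changed each sign. For Prm2+/- against Prm2+/+ it was -0.057 to 0.11 for Catsper1, -0.28 to 0.95 for Catsper2, -0.21 to 0.060 for Catsper3, -0.96 to 0.36 for Catsperg1 and -0.11 to 0.10 for Prm2. For Prm2-/- against Prm2+/- it was -0.16 to 0.038 for Catsper2, -0.079 to 0.073 for Catsper4 and -0.054 to 0.044 for Atp1a4. TMM factors moved the median LFC of all genes by at most 0.008.

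Counts over all genes were 27 for Prm2-/- against Prm2+/+ (23 higher, 4 lower), 12 for Prm2+/- against Prm2+/+ (9 and 3) and 26 for Prm2-/- against Prm2+/- (22 and 4). In the same order they became 9, 1 and 11 with at least 10 counts in every library, 131, 59 and 110 with DESeq2 on 9 libraries, and 231, 59 and 158 with DESeq2 on the 6 compared. DESeq2 called 29 higher and 30 lower for Prm2+/- against Prm2+/+ on 9 libraries and 31 and 28 on 6. Limma on only the 6 libraries compared gave 53 for Prm2-/- against Prm2+/+ and 52 for Prm2-/- against Prm2+/-, and keeping any gene with at least 1 count gave 21 for Prm2+/- against Prm2+/+. Leaving out 1 library gave 28 to 62, 9 to 43 and 23 to 49. The cause of these changes was not tested. Whether the replicate numbers pair the samples is not given. Correlations of same-numbered libraries' deviations over all tested genes ran from -0.04 to 0.04. They show no broad shared shift but cannot exclude a pairing that affects few genes. With the replicate block the counts were 15, 6 and 14, with 0 members called.

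With 3 libraries a genotype, limma found 45% of simulated 2-fold changes, so a member difference of that size could be missed. The simulation held no genes with high and low libraries and no library that stood apart. Its shares therefore do not carry over to Kcnu1, Catsperb and Catsperg1, where larger differences could also be missed. The low level of Kcnu1 rests on 16 to 31 counts.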
